A study of Mus musculus with 3 samples.

Results

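The miR-183, miR-96 and miR-182 cluster is a group of 3 microRNA hairpins that lie side by side on mouse chromosome 6 and are made from a single primary transcript. Its members were chosen by name alone, as every listed mature microRNA whose name is miR-182, miR-183 or miR-96 followed by an arm, so that miR-1839 and the like are not members. This gave 6 of the 1908 listed microRNAs, namely the major arms mmu-miR-182-5p, mmu-miR-183-5p and mmu-miR-96-5p and the 3p arm of each hairpin (the prefix mmu, for mouse, is left out from here on). They were followed in small RNA libraries of mouse liver. The animals were males of the inbred C57BL/6J strain, aged 8 to 10 weeks. The sham sample came from mice that were opened without clamping, the warm ischemia (WI) sample from mice whose hepatic vessels were clamped to the left and median lobes, and the ischemia followed by reperfusion (IR) sample from mice in which the clamp was then removed. All mice were fasted and anesthetised, no allele was altered, and the sham livers were taken after a wait that matched the clamping but not the reperfusion. Each group was represented by 1 library, and whether RNA of several mice was pooled in it was not stated. The effect of reperfusion and the longer time after surgery therefore cannot be told apart, and no difference below has a replicate check.

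MicroRNAs are cut from a hairpin precursor and repress messenger RNAs that pair with their seed, the bases near the 5′ end. The miR-183 cluster is best known from sensory organs, where photoreceptors and hair cells express it strongly, and mutations in the seed of miR-96 cause hearing loss. In the liver, miR-182 and miR-96 are linked to lipid control, since their transcription is driven by SREBP-2, the regulator of cholesterol synthesis, and they repress the SREBP inhibitors Fbxw7 and Insig2. Both are also known to repress Foxo1, a transcription factor of the fasting response.

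The hairpins of the cluster span 3820 bases on the minus strand, at chr6:30115918-30119737 of the mm9 assembly. In the direction of transcription Mir183 comes first (chr6:30119668-30119737), then Mir96 (chr6:30119446-30119551) after 116 bases, and Mir182 (chr6:30115918-30115992) after a further 3453 bases. No other gene of the GENCODE annotation of mm9 overlaps a hairpin. The nearest protein-coding genes are Nrf1, 12459 bases to the left, and Ube2h, 41551 bases to the right. RefSeq, on the GRCm38.p6 assembly, places the hairpins inside the long non-coding RNA gene Mirc35hg (chr6:30158640-30174125, minus strand), with the first hairpin 4388 bases downstream of its start. The hairpin letters at the mm9 positions were identical to those of RefSeq.

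The hairpins are shown with both mature arms in capitals, 5′ to 3′, because the arms differ widely in reads.
Mir183: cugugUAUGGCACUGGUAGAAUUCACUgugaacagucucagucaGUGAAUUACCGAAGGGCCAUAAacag
Mir96: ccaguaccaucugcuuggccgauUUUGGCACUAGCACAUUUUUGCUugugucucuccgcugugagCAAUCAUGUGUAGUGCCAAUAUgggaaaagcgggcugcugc
Mir182: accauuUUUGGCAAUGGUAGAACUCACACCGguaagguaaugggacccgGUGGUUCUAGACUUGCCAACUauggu

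The 5p arms, which carried nearly all reads, are shown with the seed (bases 2 to 8) in capitals, to compare what each would pair with.
miR-182-5p: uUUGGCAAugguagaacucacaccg
miR-96-5p: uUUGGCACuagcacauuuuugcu
miR-183-5p: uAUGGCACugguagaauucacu

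MiR-182-5p and miR-96-5p have the same first 7 bases and part at base 8, so their seeds agree in bases 2 to 7. No other listed microRNA shared these bases with either arm among the 1603 names with a RefSeq sequence. MiR-183-5p has a seed of its own that no other of these microRNAs shares. That seed differs from the seed of miR-96-5p at base 2 only, and both arms hold the run UGGCACU of 7 bases. Over their whole length, however, miR-183-5p is closer to miR-182-5p than miR-96-5p is. Without gaps, miR-182-5p and miR-183-5p agree at 18 of 22 positions and share the run UGGUAGAA of 8 bases. MiR-182-5p and miR-96-5p agree at 12 of 23 positions. The closest listed sequence to miR-182-5p was miR-183-5p, with 4 mismatches, while the aligner setting in the methods of the study tolerated 1 mismatch over a stretch as long as the longest reads kept, not only over bases 2 to 8.

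Sequencing gave 3844133 microRNA reads for the sham sample, 5064014 for the WI sample and 3784539 for the IR sample. Levels were scaled with TMM (trimmed mean of M-values) factors and expressed as reads per 1000000 scaled microRNA reads (CPM). The labelled tissue was checked with miR-122-5p, the abundant hepatocyte microRNA, which had 58752 to 92431 reads per library. It ranked 12th, 12th and 11th in the sham, WI and IR samples, with 1.64%, 1.83% and 1.55% of the microRNA reads. Beside it, the 4 erythroid markers summed to 5055, 4781 and 9020 CPM in the sham, WI and IR samples. The 5 leukocyte markers summed to 3094, 3054 and 2806 CPM, the 3 muscle markers to 6.82, 23.8 and 75.1 CPM, the 3 pancreas markers to 11.4, 17.9 and 9.41 CPM, and the 2 markers of neurons and sensory cells to 0.758, 0.822 and 8.63 CPM. Among the last, miR-124-3p was at 0 in the sham and WI samples. A single marker made up most of each of these sums. Among erythroid markers, miR-486-5p was at 3809, 3585 and 6863 CPM in the sham, WI and IR samples. MiR-9-5p had 3, 4 and 29 of the 3, 4 and 33 reads of the neuron and sensory cell markers. MiR-133a-3p had 27, 115 and 280 of the 27, 116 and 287 muscle reads. MiR-375-3p had 45, 86 and 36 of the 45, 87 and 36 pancreas reads. Among leukocyte markers, miR-142-5p was at 2735, 2672 and 2342 CPM and outweighed miR-223-3p, at 110, 109 and 236 CPM. In bulk liver, fewer cells of a type and less RNA per cell cannot be told apart.

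The cluster was first examined for its level in each sample. MiR-182-5p had 7468 reads in the sham sample, 9391 in the WI sample and 7947 in the IR sample. These correspond to 1886 CPM (95% Poisson interval 1843 to 1929), 1930 CPM (1891 to 1970) and 2078 CPM (2033 to 2124). The sham and WI intervals overlapped and that of the IR sample lay above both. MiR-182-5p ranked 39th, 37th and 38th among the 1908 listed microRNAs.

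MiR-183-5p had 393, 451 and 373 reads in the sham, WI and IR samples. Its levels were 99.2 CPM (89.7 to 110), 92.7 CPM (84.3 to 102) and 97.5 CPM (87.9 to 108), and the 3 intervals overlapped. MiR-96-5p, the arm whose seed is tied to hearing, had 30, 53 and 28 reads. Its levels were 7.58 CPM (5.11 to 10.8), 10.9 CPM (8.16 to 14.2) and 7.32 CPM (4.87 to 10.6), so the WI sample had the highest value but all intervals overlapped. The order was the same in every library, with miR-182-5p above miR-183-5p and miR-183-5p above miR-96-5p, and the intervals of neighbours in this order did not overlap in any library. Intervals cover counting error only, since PCR copies were counted as reads.

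**Figure D1:**
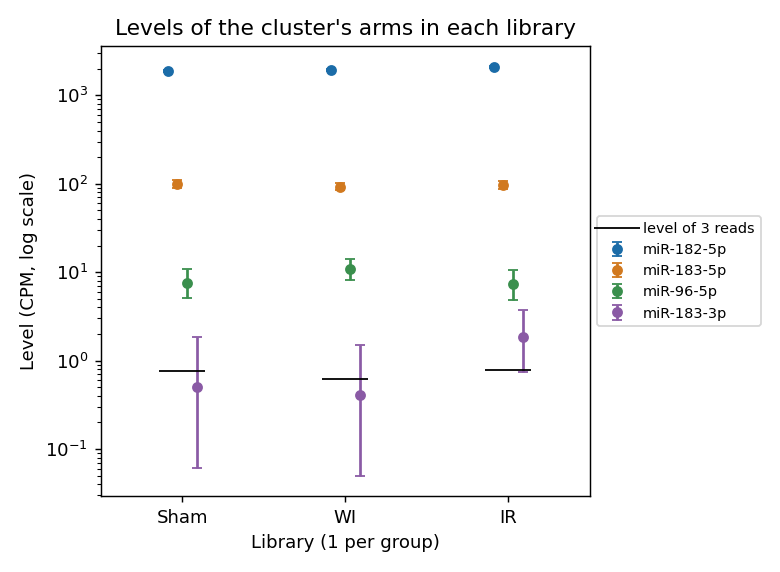
Level of each arm (CPM, log axis) in the sham, WI and IR libraries, with 95% Poisson intervals as bars and the level of 3 reads as black dashes. The 3 5p arms form separate bands in all libraries, which in the sham library lie at 1886, 99.2 and 7.58 CPM, and miR-183-3p lies within reach of the 3-read level.

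Each 3p arm was nearly or entirely without reads. MiR-182-3p was at 0 in all libraries. The 95% exact binomial upper limit of its share of both arms was 0.0494% in the sham, 0.0393% in the WI and 0.0464% in the IR sample, and 3 reads would be 0.0402%, 0.0319% and 0.0378% of the miR-182-5p reads. MiR-183-3p had 2 reads in the sham sample, 2 in the WI sample and 7 in the IR sample. MiR-96-3p had 1 read in the sham sample and 0 in the others. A level of 3 reads, taken as the floor, was 0.758, 0.617 and 0.785 CPM in the sham, WI and IR samples. Only miR-183-3p in the IR sample, at 1.83 CPM (0.736 to 3.77), was above it.

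The use of arms was then set beside that of other hairpins. As a share of both arms of Mir183, the 3p arm took 0.506% in the sham sample (95% exact binomial interval 0.0614 to 1.82), 0.442% in the WI sample (0.0535 to 1.59) and 1.84% in the IR sample (0.744 to 3.76). These intervals overlapped. The comparison took hairpins with at least 100 reads and both arms listed, each under a name that RefSeq gives to a single locus. The median share of the minor arm was 1.92% over 102 such hairpins in the sham sample. It was 1.90% over 103 in the WI sample and 1.35% over 98 in the IR sample. A minor arm at 0 was found for 11, 10 and 8 of them, Mir182 included in each library. Among the deeper hairpins with at least 1000 reads, it was found for 4 of 50, 4 of 52 and 2 of 50, again with Mir182 among them. Mir96 had too few reads to enter this comparison.

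The major arms also shared their first base. All 3 begin with U, whereas the 3p arms of Mir182 and Mir183 begin with G and that of Mir96 with C. Over the same hairpins with at least 100 reads, the major arm began with U in 55.9% (sham), 55.3% (WI) and 57.1% (IR), so this feature is common among abundant arms.

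The composition of the cluster was compared within each library, which does not depend on the scaling. MiR-182-5p made up 94.6% of the reads of the 3 major arms in the sham sample (94.1 to 95.1), 94.9% in the WI sample (94.5 to 95.3) and 95.2% in the IR sample (94.7 to 95.6). MiR-183-5p took 4.98%, 4.56% and 4.47%, and miR-96-5p took 0.380%, 0.536% and 0.335%. Within a library, these shares also depend on how well each sequence is ligated and amplified, which was not measured here.

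The reads of miR-182-5p were 19.0 times those of miR-183-5p in the sham sample (17.2 to 21.1), 20.8 times in the WI sample (18.9 to 22.9) and 21.3 times in the IR sample (19.2 to 23.7). The ratio in IR over that in sham was 1.12 with an interval of 0.970 to 1.30, which includes no change. The reads of miR-182-5p were 249 times those of miR-96-5p in the sham sample (174 to 369), 177 times in the WI sample (135 to 237) and 284 times in the IR sample (196 to 427). The last of these ratios was 1.60 times that of the WI sample, with an interval of 1.01 to 2.53. MiR-183-5p to miR-96-5p gave 13.1 (9.03 to 19.7), 8.51 (6.39 to 11.5) and 13.3 (9.07 to 20.3). The WI sample thus had the lowest value of both ratios to miR-96-5p. Of the 9 ratio changes examined, only that of miR-182-5p to miR-96-5p from WI to IR had a counting interval without 1, and it rests on 53 and 28 reads of miR-96-5p.

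**Figure D2:**
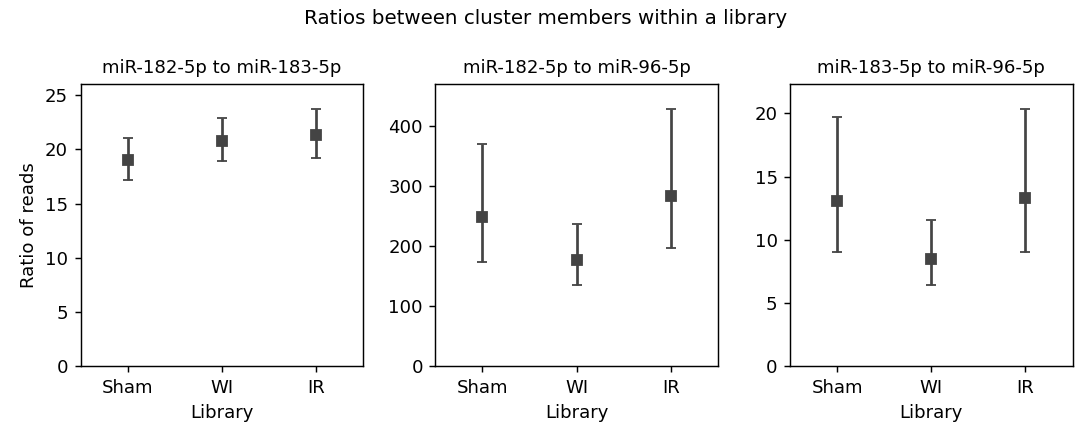
Ratio of reads between pairs of 5p arms within each library, with 95% exact binomial intervals. The ratio of miR-182-5p to miR-183-5p stays between 19.0 and 21.3, and both ratios to miR-96-5p are lowest in the WI library, with wide intervals.

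Hairpins of a primary transcript need not yield equal amounts of mature microRNA, so the spread within the cluster was set beside other genomic clusters. With hairpins at most 10 kb apart on the same strand, 8 clusters had at least 3 hairpins whose major arm came from a single locus and had at least 10 reads in every library. This selection was made after the values had been seen and carries no test. The major arm was the most-read arm with a RefSeq sequence under its name. Mir532 thus entered with miR-532-3p, at 9.34 CPM in the sham sample, although miR-532-5p was at 293 CPM. The ratio of the Mir500 to Mir532 cluster, 25.2 in the sham sample, rests on that arm and enters the medians. The ratio of the highest to the lowest major arm was 249, 177 and 284 in the miR-183 cluster, against medians of 19.3, 16.3 and 18.5 over the 8 clusters in the sham, WI and IR samples. The next widest in the sham sample, Mir450b to Mir322, had ratios of 44.7, 74.3 and 26.4. MiR-351-5p, which is grouped with miR-322 and miR-503, was not among the arms used for it. It was at 424 CPM in the sham and 556 CPM in the IR sample, above miR-322-5p (169 and 186 CPM). The ratios of that cluster are therefore too low in these samples. The narrowest was the cluster of miR-200b, miR-200a and miR-429 (3.41, 2.69 and 3.78). The miR-106b-25 cluster, with miR-25-3p on top and miR-106b-5p lowest, had ratios of 21.8, 18.2 and 20.8. In the miR-17-92 cluster, miR-92a-3p exceeded miR-18a-5p by 845, 853 and 564 times, but miR-92a-3p is also made at a second locus and was therefore left out of the 8-cluster comparison.

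**Figure D3:**
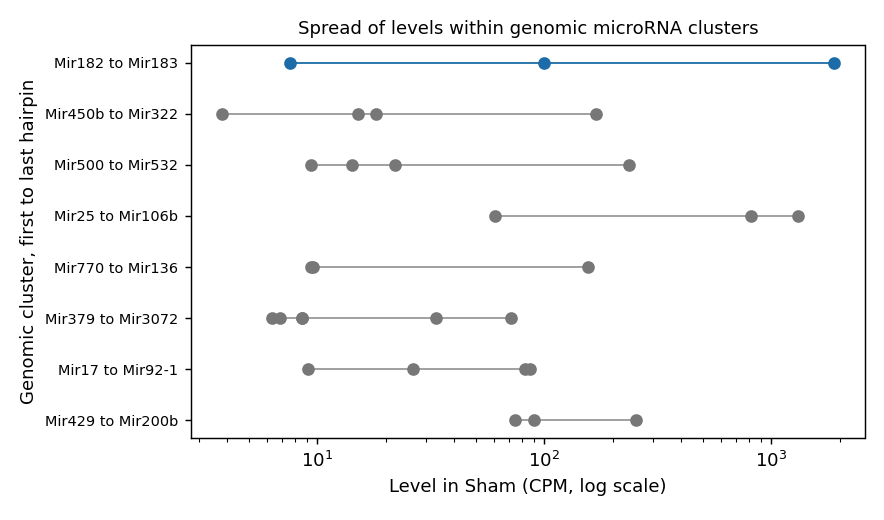
Level in the sham library (CPM, log axis) of the most-read arm with a RefSeq sequence, for the hairpins used in 8 genomic clusters. A line runs from the lowest to the highest. The miR-183 cluster (blue) runs from 7.58 to 1886 CPM, a wider span than the other 7 clusters.

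Pairwise comparisons were then made between the samples. A microRNA was called differentially expressed (DE) when its fold change exceeded 1.5 and its unadjusted two-sided Fisher's exact p was under 0.01, the criteria in the methods of the study, and such a test compares 2 libraries and not 2 conditions. With TMM scaling, none of the members was called in any comparison. In WI versus sham, 0 of 5 tested members were called, where 1.92% of all 782 tested microRNAs were. In IR versus WI it was 0 of 4, against 9.25% of 789, and in IR versus sham 0 of 5, against 7.11% of 774. With members this few, these shares do not set the cluster apart from other microRNAs. The study reported more DE microRNAs in WI versus sham and in IR versus sham than were called here, and the difference was not traced. At an unadjusted Fisher's exact p under 0.05, with the fold threshold kept, the counts of members were 0, 1 and 0 in the same order. Over all microRNAs tested, this rule called 33 of 782, 95 of 789 and 73 of 774. With edgeR's exact test and an assumed coefficient of variation of 0.1, 0.2 or 0.4, no member was called. Over all microRNAs tested, edgeR's test called 12, 4 and 1 of 782 in WI versus sham, against 15 with the Fisher rule. In IR versus WI it called 64, 33 and 6 of 789, against 73. In IR versus sham it called 50, 24 and 10 of 774, against 55.

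After ischemia, the level of miR-182-5p was 1.02 times that of the sham sample (95% interval 0.993 to 1.06, Fisher's exact p = 0.133, adjusted over all microRNAs 0.559). MiR-183-5p was at 0.934 times the sham level (0.814 to 1.07, Fisher's exact p = 0.333). MiR-96-5p was at 1.44 times the sham level, with an interval of 0.902 to 2.33 (Fisher's exact p = 0.122, adjusted 0.537). At 30 reads in the sham sample, miR-96-5p would have needed 65 reads in the WI sample to be called, a fold change of 1.76, and it had 53. For miR-182-5p and miR-183-5p the counts were deep enough that the fold threshold itself set the limit, at a fold change of 1.5.

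After reperfusion, miR-182-5p was at 1.08 times the WI level (1.04 to 1.11, Fisher's exact p = 1.3e-06, adjusted 1.17e-05) and 1.10 times the sham level (1.07 to 1.14, Fisher's exact p = 1.61e-09, adjusted 2.02e-08). On the log2 scale these differences were 0.11 (SE 0.022) and 0.14 (SE 0.023). Both exceeded counting error and both were far under the fold threshold. Their direction depended on the scaling. When libraries were instead scaled to all reads aligned to the genome, the log2 differences were -0.22 and -0.028. This setting moved the median of all microRNAs to -0.33 and -0.11. The erythroid markers moved in the same samples, with 3 of 4 called higher in IR versus WI and 4 of 4 in IR versus sham. Over all microRNAs tested, 9.25% and 7.11% were called in these comparisons. The part of the erythroid markers in the level of miR-182-5p was not tested.

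MiR-183-5p was at 1.05 times the WI level (0.915 to 1.21) and 0.983 times the sham level (0.851 to 1.14) after reperfusion, with Fisher's exact p of 0.483 and 0.828. Both intervals lie inside a change of 1.5 times in either direction. MiR-96-5p was at 0.672 times the WI level (0.409 to 1.08, Fisher's exact p = 0.0936), from 53 to 28 reads, and at 0.967 times the sham level (0.556 to 1.67). To be called lower than in the WI sample it would have needed 21 reads or fewer. The counting interval of miR-96-5p thus included a rise of 1.5 times but no such fall in WI versus sham, a fall of that size but no such rise in IR versus WI, and both in IR versus sham. With the genome-aligned totals, miR-96-5p was called lower in IR versus WI, at -0.89 on the log2 scale (Fisher's exact p = 0.00743). MiR-183-3p, with 7 reads in IR and 2 in WI, gave a ratio of 4.45 with an interval of 0.848 to 43.9 (Fisher's exact p = 0.0492, adjusted 0.208).

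**Figure D4:**
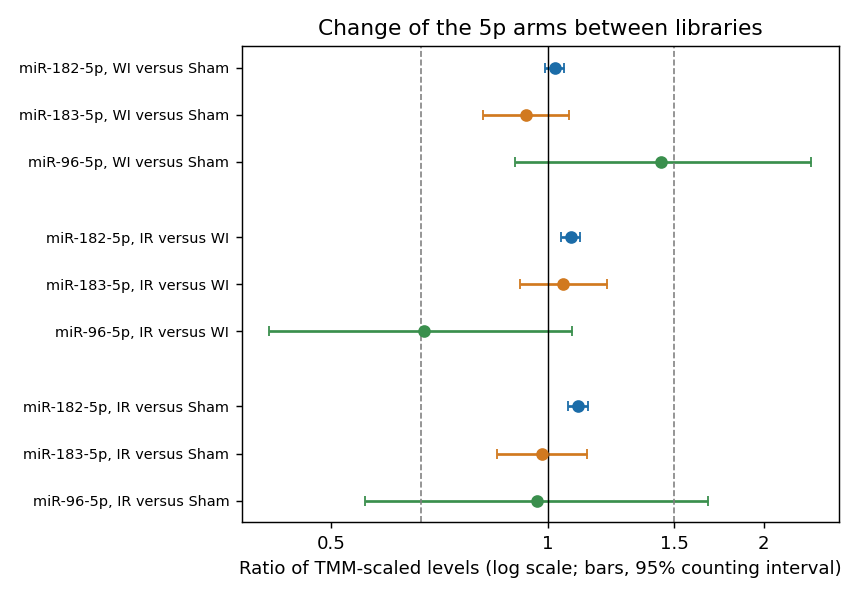
Ratio of the TMM-scaled levels of each 5p arm between libraries (log axis), with 95% counting intervals and dashed lines at a fold change of 1.5 in either direction. MiR-182-5p and miR-183-5p lie inside the dashed lines with their whole intervals, and every interval of miR-96-5p crosses at least 1 of them.

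The primary transcript was not measured. The sum of the 3 major arms was 1993 CPM in the sham sample (1949 to 2037), 2034 CPM in the WI sample (1994 to 2074) and 2183 CPM in the IR sample (2136 to 2230). It followed miR-182-5p, which holds most of its reads. The sum in IR was 1.10 times that of sham (1.06 to 1.13), 1.07 times that of WI (1.04 to 1.11), and in WI 1.02 times that of sham (0.991 to 1.05). In reads, it was 0.205%, 0.195% and 0.221% of the unscaled microRNA reads of the sham, WI and IR libraries. As with miR-182-5p, the genome-aligned totals reversed the direction of both differences of the IR sample.

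The members were also placed among the 279 microRNAs with at least 100 reads over the 3 libraries. The median absolute log2 change of these was 0.17 in WI versus sham, 0.20 in IR versus WI and 0.22 in IR versus sham. A larger absolute change than that of miR-182-5p was seen for 245, 198 and 181 of them. A larger one than that of miR-183-5p was seen for 191, 220 and 257. MiR-96-5p was surpassed by only 25 in WI versus sham and 63 in IR versus WI, but by 239 in IR versus sham. The more abundant arms of the cluster thus lay on the flat side of the distribution. The read minimum, however, admits microRNAs with a larger counting error than that of miR-182-5p (SE 0.022 in WI versus sham). The part of read depth in these ranks was not tested. The estimates of miR-96-5p were among the larger ones in the comparisons that involve the WI sample. Those estimates rest on 28 to 53 reads (SE 0.33 and 0.34), their intervals include no change, and counting error alone could place them there.

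**Figure D5:**
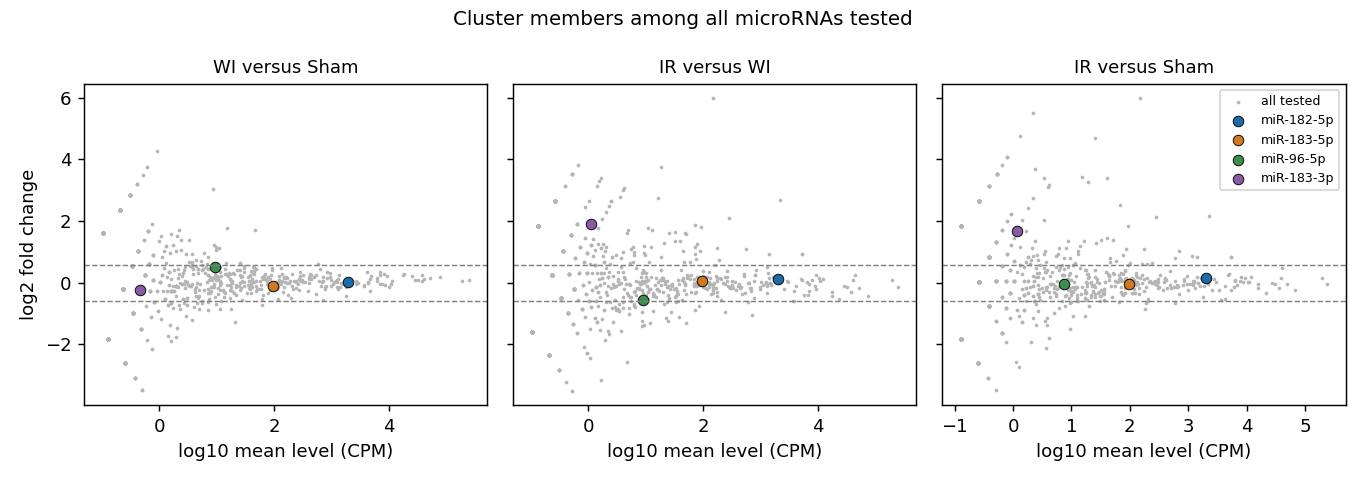
Log2 fold change against log10 of the mean level (CPM) for all microRNAs tested (grey) in the 3 comparisons, with cluster members in colour and dashed lines at a fold change of 1.5. MiR-182-5p and miR-183-5p lie close to 0 in each panel, miR-96-5p is near the upper line in WI versus sham and near the lower line in IR versus WI, and miR-183-3p is among the microRNAs with the fewest reads.

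For miR-182-5p and miR-183-5p, the microRNAs with the most similar pattern were sought among 278 others with at least 100 reads. Distance was taken between the pairs of log2 ratios (WI to sham and IR to sham). No such search was made for miR-96-5p. Nearest to miR-182-5p were miR-326-3p (distance 0.028), miR-10a-5p (0.030) and miR-151-3p (0.033). Their levels differ widely, since in the sham sample miR-326-3p was at 17.9 CPM and miR-10a-5p at 37424 CPM. Nearest to miR-183-5p were miR-676-5p (0.019), miR-27a-3p (0.039) and miR-199a-5p (0.043). Such closeness over 3 libraries is a weak description, because 16 microRNAs lay within a distance of 0.1 of miR-182-5p and 20 within 0.1 of miR-183-5p.

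Other microRNAs that share a regulator, a target or a tissue with the cluster were examined by fixed lists. For scale, 1.92% of all microRNAs tested were called in WI versus sham, 9.25% in IR versus WI and 7.11% in IR versus sham. The SREBP-linked list held both arms of miR-33, which is made from an intron of the SREBP-2 gene Srebf2 and represses the cholesterol exporter Abca1. MiR-33-5p had 21 reads in the sham sample, 61 in the WI sample and 18 in the IR sample, so the WI sample stood above the others. It rose in WI versus sham by 1.23 on the log2 scale (SE 0.37, Fisher's exact p = 0.000498) and fell by 1.39 in IR versus WI (SE 0.39, Fisher's exact p = 0.0001). MiR-33-3p had 7, 23 and 13 reads and was not called. The list therefore had 1 of 2 called higher in WI versus sham, 1 of 2 called lower in IR versus WI and 0 of 2 called in IR versus sham. MiR-96-5p had its highest level in the same sample but was not called, and miR-182-5p differed by 0.03 on the log2 scale between the sham and WI samples.

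The epithelial miR-200 family, which marks bile duct and other epithelial cells, had 0 of 5 members called in WI versus sham and 0 of 5 in IR versus sham. Over all microRNAs tested, 1.92% and 7.11% were called there, so 0 of 5 does not set the family apart. In IR versus WI, 1 of 5 was called higher, namely miR-200c-3p, with 18 and 32 reads. The median log2 change of the family was 0.0071, -0.010 and 0.029 in WI versus sham, IR versus WI and IR versus sham, beside medians of 0.046, -0.013 and 0.036 over all microRNAs tested. Its summed level was 486, 475 and 491 CPM in the sham, WI and IR samples, below that of miR-182-5p alone.

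The list of microRNAs that also target Foxo1 held miR-27a-3p, miR-27b-3p and miR-223-3p. Of these, 0 of 3 were called in WI versus sham, and 1 of 3 was called higher in each comparison with the IR sample, which was miR-223-3p, a microRNA of neutrophils and other myeloid cells. MiR-27b-3p was the most abundant of them, at 27411, 28956 and 27175 CPM in the sham, WI and IR samples, and was not called. In the other polycistrons, 0 of 6 members of the miR-17-92 cluster and 0 of 3 members of the miR-106b-25 cluster were called in any comparison. Over all microRNAs tested, 1.92%, 9.25% and 7.11% were called in WI versus sham, IR versus WI and IR versus sham. Counts of 0 in lists this small do not set these polycistrons apart. The median log2 changes of the miR-17-92 and miR-106b-25 clusters in IR versus sham were 0.12 and 0.18. Within the miR-183 cluster, the log2 changes in the same comparison were 0.14 for miR-182-5p, -0.025 for miR-183-5p and -0.048 for miR-96-5p.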

How the data were processed

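Small RNA was sequenced in 3 liver libraries, 1 per group, grouped by sample title. The authors deposited raw read counts, 1 value for each mature microRNA. The authors trimmed and size-selected reads, aligned them with Bowtie 0.12.7 (the version also stands in the submitters' processing notes), sorted them with HTSeq and counted them with miRDeep2. The methods name mm9 for small RNA and the processing notes name mm10, and the counts carry no coordinates. Reads without molecular identifiers include PCR copies.

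TMM factors from edgeR 4.0.16 (R 4.3.3) scaled the counts and were 1.03 for sham, 0.961 for WI and 1.01 for IR. Log2 fold changes were taken on log2(CPM + 0.1), ratios with intervals carry no pseudocount, and SE came from read counts. Every microRNA with a read in either library was tested by a two-sided Fisher's exact test in scipy 1.17.1, with Benjamini-Hochberg adjustment over all tested. Without replicates the quasi-likelihood fit could not be made. Alternatives used DESeq2 1.42.0 size factors, other totals (microRNA reads, those less the 10 top microRNAs, or the genome-aligned reads given in the study), thresholds, read minimums and edgeR's exact test. The procedure was tested on simulated data with counting error only and 200 microRNAs changed by far more than the fold threshold. That test does not cover variation between livers or small changes. Genomic positions came from GENCODE (mm9) and sequences from RefSeq (GRCm38.p6), matched by name for 1603 of 1908 microRNAs. Named microRNAs were the members, seed mates, nearest patterns and fixed lists (SREBP-linked, miR-200, Foxo1, other polycistrons, and markers of hepatocytes, erythroid cells, leukocytes, muscle, pancreas, and neurons and sensory cells). The members and lists were chosen with earlier results of these data known.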

Additional observations from a re-analysis of the deposited data

How the results depend on the processing

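The number of members called stayed at 0 in WI versus sham and in IR versus sham under all 12 alternatives. In IR versus WI it became 1 with genome-aligned totals (miR-96-5p) and 1 at p under 0.05 (miR-183-3p, with 7 and 2 reads). Over all 789 microRNAs tested, these settings called 111, of which 73 were lower in IR, and 95, where the reported setting called 73, of which 24 were lower. Of 166 log2 changes of members under the 12 alternatives, 156 kept their direction and side of the threshold. The 8 that changed sign had not been called. Alternatives that changed only a threshold or the test left the log2 change as it was, so its sign could not change there. Raising the fold threshold to 2 could not have added a call. In WI versus sham, miR-182-5p became -0.011 with DESeq2 size factors, -0.067 with library totals, -0.049 with totals that omit the 10 top microRNAs and -0.0063 with at least 10 reads. With genome-aligned totals, miR-183-5p became 0.058 in WI versus sham, miR-182-5p became -0.22 in IR versus WI and -0.028 in IR versus sham, and miR-183-5p became -0.25 in IR versus WI.

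The log2 change of the sum of the 3 major arms in WI versus sham, 0.030, became -0.015 with DESeq2 size factors, -0.071 with library totals, -0.053 without the 10 top microRNAs, -0.010 with at least 10 reads and 0.19 with genome-aligned totals. In IR versus WI, 0.10 became 0.17 with library totals, 0.16 with at least 10 reads and -0.22 with genome-aligned totals. In IR versus sham, 0.13 became 0.067 without the 10 top microRNAs and -0.037 with genome-aligned totals. These shifts follow from the scaled totals alone, which move every microRNA of a library together. Summing both arms left each ratio between members inside its interval. With at least 1000 reads, the median share of the minor arm over hairpins was 0.460%, 0.535% and 0.443% in the sham, WI and IR samples. No paired analysis was possible because each group held 1 library, and no replicate could be left out. Depth limits miR-96-5p and the 3p arms, for which a change of 1.5 times could not have been called at these read counts.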
